A study of Mus musculus with 6 samples.

Results

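The mitochondrially encoded genes are the 37 rows of the deposited count table that lie on chromosome MT, of 54532 rows in all: 13 protein-coding genes, 2 ribosomal RNA genes and 22 transfer RNA genes. Bulk RNA sequencing covered 6 libraries of the cultured mouse line RAW264.7, which is macrophage-like. The 3 control libraries carry the genotype label WT and no treatment tag, and the 3 others are labelled ERMAP Knockdown and treated with shRNA (short hairpin RNA). The protocol text names an ERMAP-shRNA lentivirus for all 6 samples, no control virus is described, and the labels name no clone, pool or separate cultures. The p-values below therefore measure the spread among the 6 libraries, possibly a technical one. The question posed by the series is which genes differ after ERMAP, a membrane protein of the butyrophilin family, is knocked down.

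Libraries held 13447021 to 16602734 counts. After low counts were filtered out, 12491 genes were tested, 22 of them mitochondrially encoded. Ermap itself was counted 12, 12 and 3 times in control replicates 1 to 3, against 10, 21 and 14 times in labelled replicates 1 to 3. Its log2 fold change of labelled over control libraries was 0.81 (SE 0.52, edgeR adjusted p = 0.929), which is opposite to the label, so directions below refer to the label ERMAP shRNA and not to a measured knockdown. All 10 macrophage markers checked were detected. Of them, 1 (Fcgr1) was called higher in the labelled libraries (log2 fold change 1.64, edgeR adjusted p = 0.000116), as were 1.01% of all tested genes. The summed level of the 10 markers was 7608 to 7892 CPM (counts relative to library size) in control and 7864 to 8031 CPM in the labelled libraries. Markers of T cells, B cells, neutrophils, fibroblasts, epithelial and erythroid cells summed to at most 4.13 CPM in any library.

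The mitochondrial genome is a small circular DNA that every mitochondrion carries in many copies. It encodes core subunits of the respiratory chain and of ATP synthase, together with the rRNAs and tRNAs of a separate ribosome that translates them. Both of its strands are transcribed by the polymerase POLRMT into long precursors, from which tRNAs are cut out and the mRNAs and rRNAs are released. In macrophages the respiratory chain also changes with activation. All other proteins of the organelle, including every protein that copies, transcribes or translates this genome, come from nuclear genes.

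Protein-coding members of 1 stretch of the genome had lower levels than the others. The 6 protein-coding genes from position 6870 to 10173 (mt-Co2, mt-Atp8, mt-Atp6, mt-Co3, mt-Nd3 and mt-Nd4l) had mean levels over the 6 libraries of 1.25 to 88.1 FPKM (the deposited count per gene length and library size). The other 7 protein-coding genes had 704.1 to 6816 FPKM. The 5 tRNA genes of the same stretch held 0 to 4 counts each over all libraries, while the 17 tRNA genes elsewhere held 0 to 1958. Low tRNA counts were therefore not confined to the stretch. mt-Co1 was highest per length with 6816 FPKM, followed by mt-Cytb with 2820 and mt-Nd1 with 2795 FPKM. mt-Co1 exceeded mt-Cytb in 6 of 6 libraries, while mt-Cytb exceeded mt-Nd1 in 5. mt-Nd2 (1300.2 FPKM) and mt-Nd5 (967.0 FPKM) came next, in this order in 6 of 6 libraries. mt-Nd6 (745.2 FPKM) and mt-Nd4 (704.1 FPKM) could not be ordered, with 3 libraries each way. mt-Nd4 exceeded the rRNA gene mt-Rnr1 (332.9 FPKM) in 6 of 6 libraries, and mt-Rnr1, the tRNA gene mt-Tp (325.3 FPKM) and mt-Rnr2 (309.6 FPKM) could not be ordered. How mRNA was enriched is not described, so between mRNA, rRNA and tRNA this order holds for the libraries and not for amounts in the cell.

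**Figure D1:**
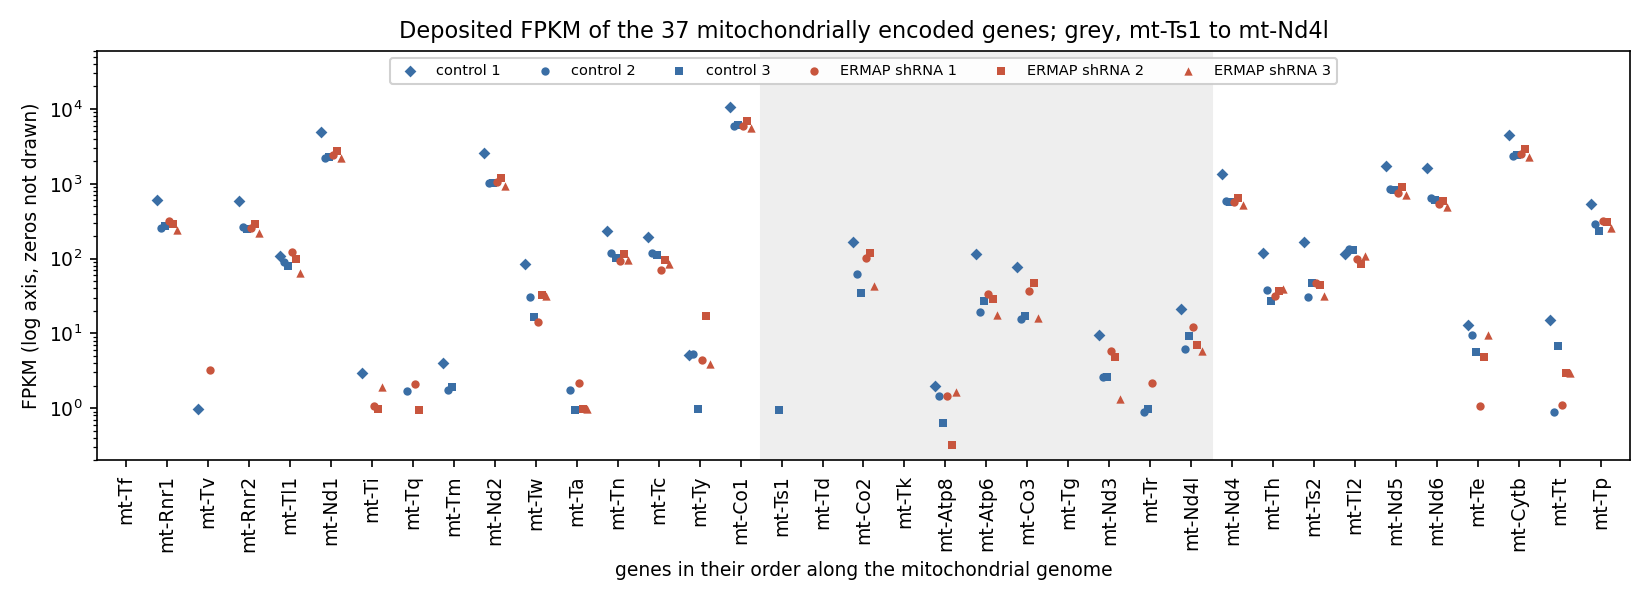
Deposited FPKM (log axis, zeros not drawn) of all 37 mitochondrially encoded genes in genome order, 1 point per library, with controls in blue and libraries labelled ERMAP shRNA in red. The 6 protein-coding genes in the grey stretch have means of 1.25 to 88.1 FPKM, against 704.1 to 6816 FPKM for the other 7.

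Of the 6 protein-coding genes of the low stretch, 5 have near-identical annotated copies in the nuclear genome, and for mt-Atp8 none is annotated. On the minus strand of chromosome 1, at chr1:24611535-24616197 in mm10, 7 unprocessed pseudogenes follow each other in the order of mt-Co1, mt-Co2, mt-Atp6, mt-Co3, mt-Nd3, mt-Nd4l and mt-Nd4. The spaces between the copies are close to those between the genes. The first, from mt-Co1 to mt-Co2, is 140 bases in both, and the other 5 differ by 1 to 4 bases, such as 70 bases between mt-Nd3 and mt-Nd4l and 74 between their copies. The 233 bases between the copies of mt-Co2 and mt-Atp6 correspond to the 230 bases that hold mt-Tk and most of mt-Atp8, and no transcript is annotated there. Aligned to GENCODE vM21 transcripts, the copies of mt-Co2 (Gm28661), mt-Atp6 (Gm10925), mt-Co3 (Gm28437) and mt-Nd4l (Gm10222) had 0 mismatches over 681, 678, 783 and 294 bases. The copy of mt-Nd4 (Gm28439) had 0 mismatches but covered 63.6% of the gene, and that of mt-Co1 (Gm29216) covered 31.8%. Of the 100-base windows of mt-Co2, mt-Atp6, mt-Co3, mt-Nd3 and mt-Nd4l, 97.6% to 99.9% occurred without a mismatch in another annotated transcript. The share was 60.8% in mt-Nd4, 30.8% in mt-Co1, 3.19% in mt-Nd2 and 0% in mt-Atp8, mt-Nd1, mt-Nd5, mt-Nd6, mt-Cytb, mt-Rnr1 and mt-Rnr2. Only annotated transcripts were searched. The bases between the copies of mt-Co2 and mt-Atp6 were not read, so the 0% of mt-Atp8 leaves its level uncertain as well. How reads that match both places were counted is not given in the sources used here, so the levels of the members with copies are uncertain, and the part of the copies in those levels was not tested.

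mt-Nd3, a small complex I subunit, and its copy Gm28438 are shown because they differ by 1 base in the 345 aligned and because the copy held more counts than the gene. The first 150 bases of each are printed 5′ to 3′ with the mismatch in capitals. The substitution from gene to copy is T3C, with positions counted from 1 at the first base of mt-Nd3. The gene lies on the plus strand of chromosome MT from 9459, and the copy on the minus strand at chr1:24612970-24613119.
mt-Nd3: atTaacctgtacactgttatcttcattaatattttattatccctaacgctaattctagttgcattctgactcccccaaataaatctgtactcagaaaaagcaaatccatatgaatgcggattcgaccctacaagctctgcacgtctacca
Gm28438: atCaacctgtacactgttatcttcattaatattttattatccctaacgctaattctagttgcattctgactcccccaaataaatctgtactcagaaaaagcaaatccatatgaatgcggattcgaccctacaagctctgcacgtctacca

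mt-Nd3 had 49, 15 and 14 counts in control replicates 1 to 3 and 27, 25 and 7 in labelled replicates 1 to 3. Gm28438 had 650, 439 and 443 counts in control and 319, 534 and 556 in the labelled libraries. The copy thus held more than its gene in every library, and summed over libraries the gene held 0.0466 times the counts of the copy. mt-Nd4l was also outnumbered by its copy, at 0.461 times. For the identical pairs of the longer genes the sums were close to equal, at 1.14 for mt-Co2, 0.946 for mt-Atp6 and 1.20 for mt-Co3. mt-Nd4 and mt-Co1, whose copies are partial, held 151.2 and 811.2 times the counts of theirs. No copy was called, where edgeR called 1.14% of all tested genes. The edgeR log2 fold changes of the copies ran from -0.65 (Gm10925) to 0.34 (Gm29216), with adjusted p from 0.937 to 0.989. The RAW264.7 line comes from BALB/c mice, whereas the reference genome is that of C57BL/6J mice, and base differences between these strains were not examined.

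**Figure D2:**
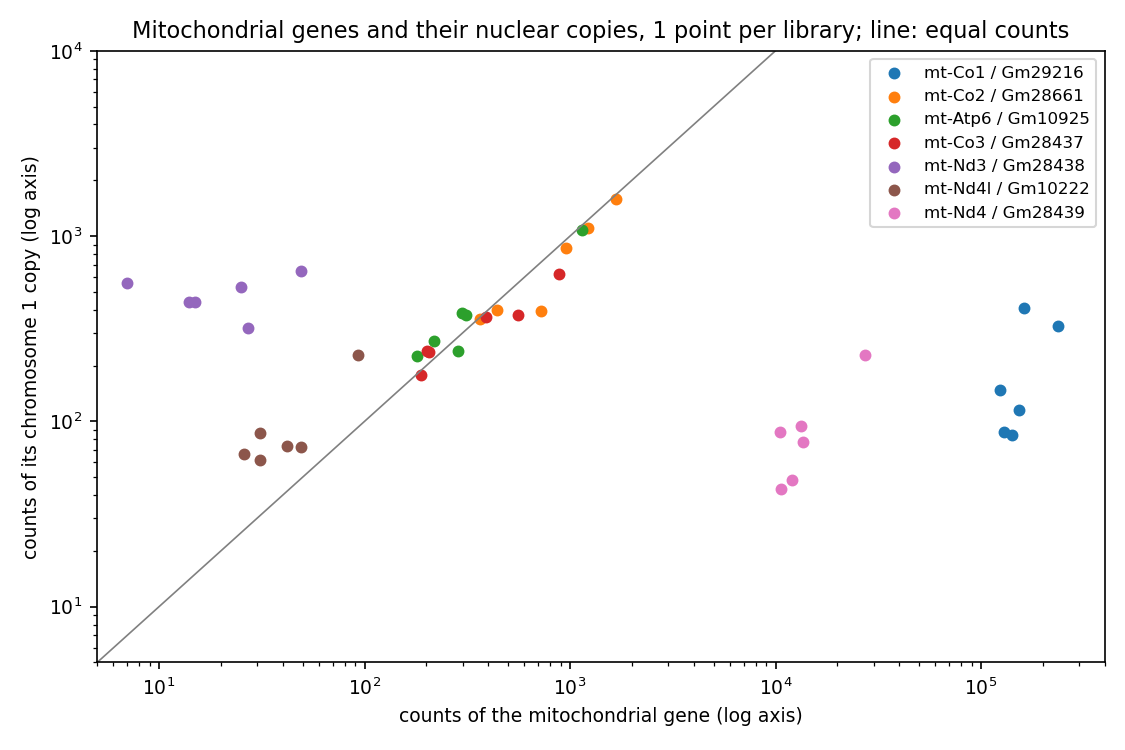
Counts of each mitochondrial gene (horizontal, log axis) against counts of its copy on chromosome 1 (vertical, log axis), 1 point per library and 1 colour per pair, with a line at equal counts. The pairs of mt-Co2, mt-Atp6 and mt-Co3 lie near the line, mt-Nd3 and mt-Nd4l above it, and mt-Co1 and mt-Nd4 far below it.

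The mitochondrial share of all counts was 3.69% in control replicate 1, 1.87% in control replicate 2 and 1.89% in control replicate 3. It was 1.88%, 2.18% and 1.71% in labelled replicates 1 to 3. Control replicate 1 stood at 1.96 times the mean of the other controls, and the other 5 libraries overlapped. A share of all counts in bulk libraries does not tell the number of mitochondria from the RNA in each. It also depends on the counts of all other genes. Means were 2.48 ± 1.05% in control and 1.92 ± 0.235% in the labelled libraries (SD, n = 3), a difference of -0.56 percentage points (exact permutation test, two-sided, p = 0.6, where 3 against 3 libraries cannot go below 0.1). Without control replicate 1 the difference was 0.042 percentage points, in the other direction (exact permutation p = 0.9). Wilson 95% intervals, which cover counting error only, were 3.68% to 3.70% for control replicate 1 and at most 2.17% to 2.19% for the others.

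Control replicate 1 was the highest library in each biotype, while the next highest library was labelled replicate 2 for protein-coding genes and rRNA and control replicate 2 for tRNA. Protein-coding genes made up 95.6% to 96.4% of the mitochondrial counts of a library, rRNA 3.35% to 4.15% and tRNA 0.266% to 0.323%. Of all counts, rRNA took 0.153% in control replicate 1, 0.0666% and 0.0659% in the other controls, and 0.0710%, 0.0739% and 0.0575% in the labelled libraries. tRNA took 0.0109%, 0.00605% and 0.00529% in control and 0.00561%, 0.00579% and 0.00501% in the labelled libraries. Control replicate 1 stood at 1.95 times the mean of the other controls for protein-coding genes, 2.31 times for rRNA and 1.92 times for tRNA. The exact permutation p for labelled against control was 0.6, 0.6 and 0.4.

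**Figure D3:**
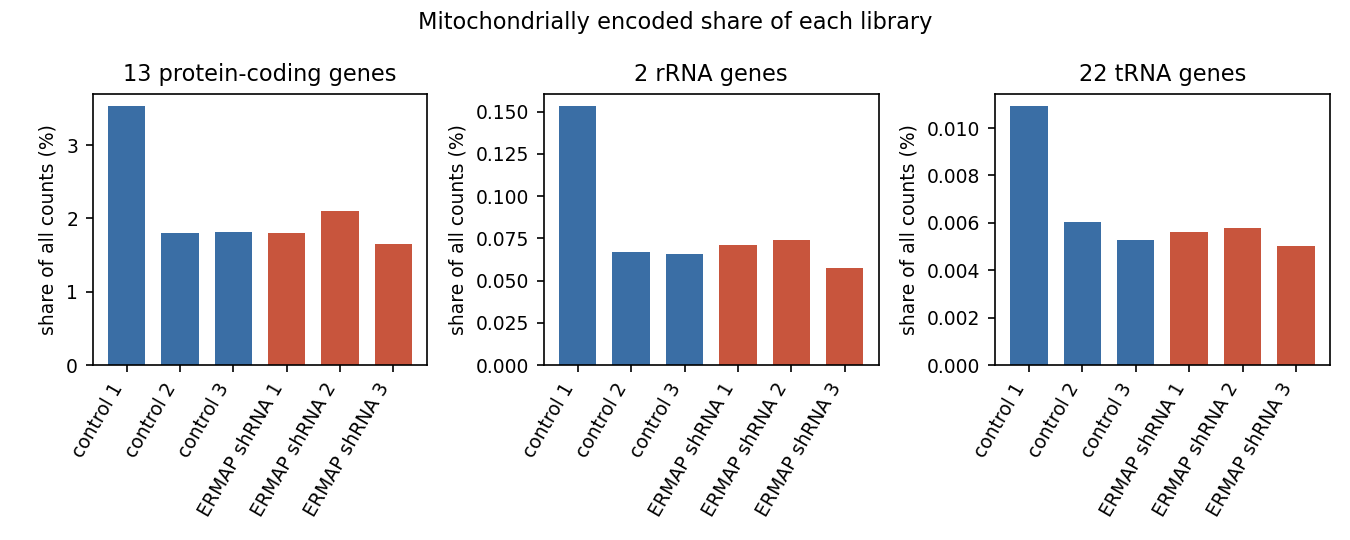
Share of all counts in each library taken by mitochondrially encoded protein-coding, rRNA and tRNA genes (bars from 0, each panel with its own axis), controls in blue and libraries labelled ERMAP shRNA in red. Control replicate 1 is the highest bar in each panel, with 0.153% for rRNA against 0.0575% to 0.0739% elsewhere.

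The excess of control replicate 1 differed between members. Among the tested members it ranged from 0.863 times the mean of the other controls in mt-Tl2 to 4.98 times in mt-Atp6. It was 1.76 times in mt-Co1, 1.85 in mt-Cytb, 2.22 in mt-Nd1 and 2.61 in mt-Nd6, and 12 of 12 tested protein-coding genes, 2 of 2 rRNA genes and 6 of 8 tested tRNA genes had their highest CPM in this library. Transcripts poor in GC were higher in the same library across the nuclear genome. The median log2 ratio of control replicate 1 over the other controls was 0.64 in 637 nuclear protein-coding genes under 40% GC and -0.50 in 2377 genes of 55% GC and over, with a pseudocount of 0.5 CPM. The 13 mitochondrial protein-coding genes have 31.9% to 41.1% GC, and the 1006 nuclear protein-coding genes of that range had a median of 0.60 (10th to 90th percentile 0.17 to 0.92). The 22 tested mitochondrial genes had a median of 1.23. They include rRNA and tRNA genes, some outside that GC range, such as mt-Tl2 with 31.0% and mt-Tp with 44.8%. The nuclear and mitochondrial sets are therefore not matched for GC content or gene class. The part of GC content in the mitochondrial share was not tested, and fold changes with GC offsets are given below.

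**Figure D4:**
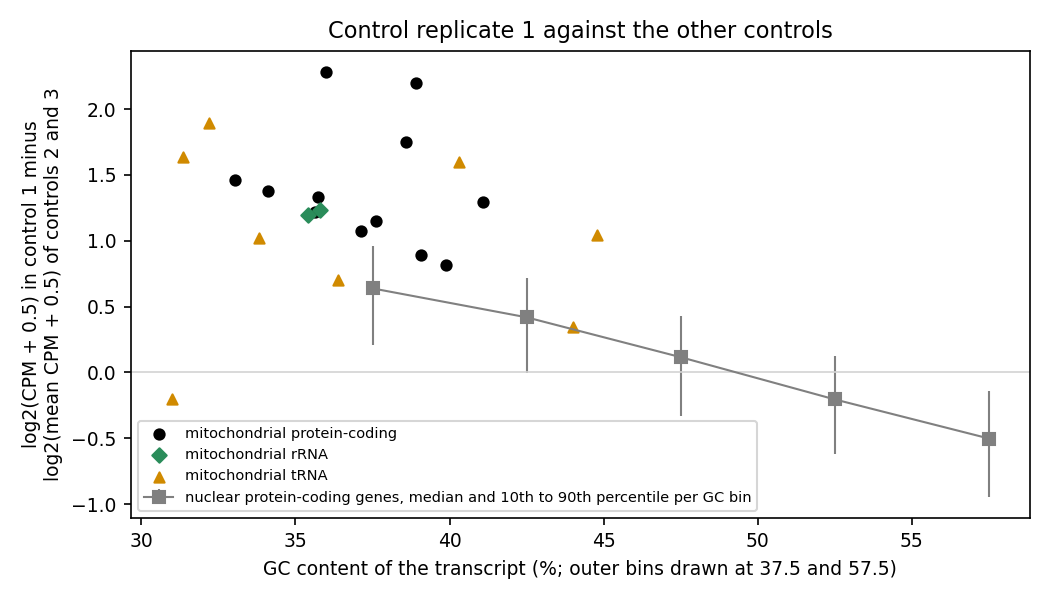
Log2 ratio of control replicate 1 over the mean of control replicates 2 and 3 (CPM + 0.5) against the GC content of the transcript, for the 22 tested mitochondrial genes and for nuclear protein-coding genes in 5 GC bins (median, bars from the 10th to the 90th percentile). Nuclear medians go from 0.64 to -0.50 with GC content, and most mitochondrial points lie above the lowest-GC bin.

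No mitochondrially encoded gene passed the test over all genes. EdgeR called 0 of 22 tested members higher, where 1.01% of all tested genes were called higher, and 0 lower, where 0.136% were called lower. By the unadjusted p at 0.05, edgeR had 0 members higher (3.71% of all tested genes) and 2 lower (3.04% of all). In CPM, all 3 labelled libraries lay below all 3 controls in 3 of 22 members (6.47% of all tested genes) and above them in 0 (7.74% of all). DESeq2 called 0 in either direction, where it called 2.19% of all genes, and 1 member was lower by its unadjusted p, as were 3.02% of all genes. Log2 fold changes ran from -1.01 to 0.01 with a median of -0.53, against a median of -0.01 over all tested genes, and 21 of 22 were negative, as were 51.7% of all. Without control replicate 1, 7 of 22 were negative (51.4% of all genes), the median was 0.08, and edgeR called 0 members, where it called 2.67% of all genes higher and 2.19% lower (4.86% together). By the unadjusted p, 3 members were lower and 0 higher in that fit, and 8.54% of all genes were lower. With offsets for GC content per library the median was -0.22 and edgeR called 0 members, with 4 lower and 0 higher by the unadjusted p, against 6.02% and 6.75% of all genes. In that fit 2.16% of all genes were called higher and 1.16% lower (3.32% together).

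**Figure D5:**
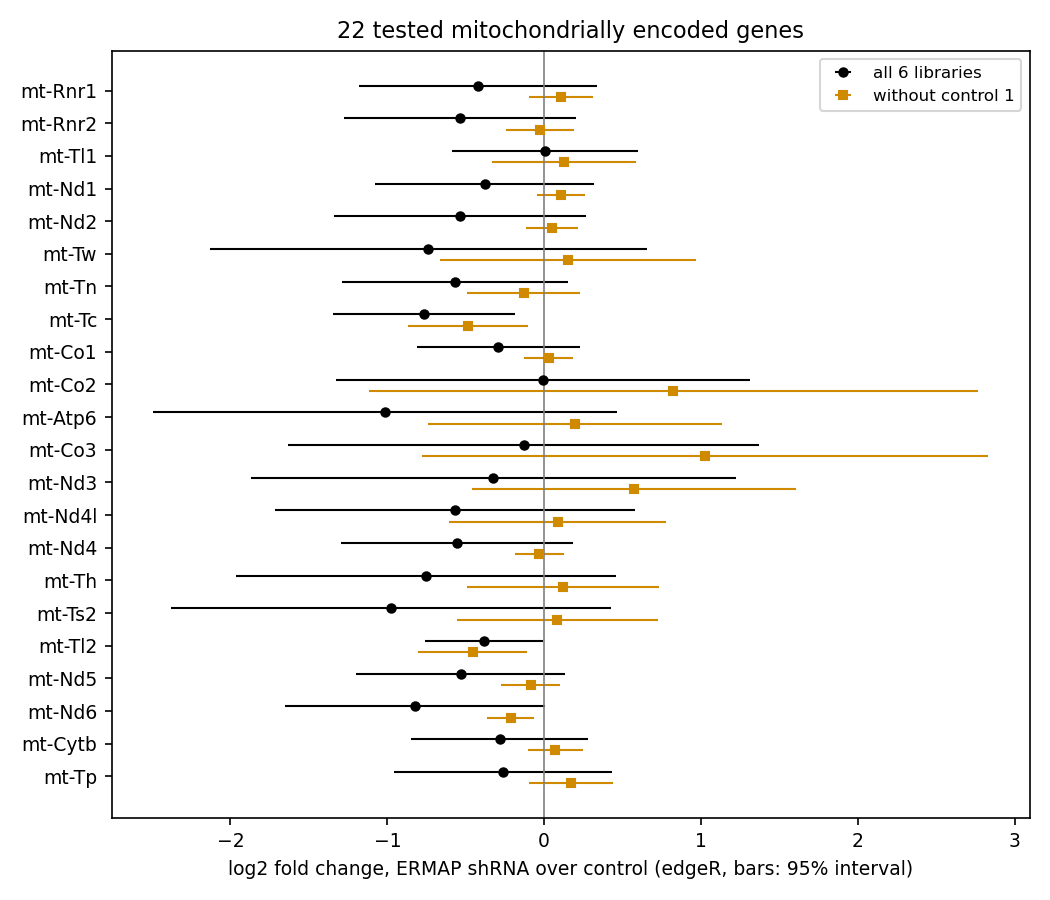
Log2 fold changes of libraries labelled ERMAP shRNA over control with 95% intervals from edgeR for the 22 tested members in genome order, with all 6 libraries (black) and without control replicate 1 (orange). With all libraries 21 of 22 values lie below 0, and without control replicate 1 7 of 22 do.

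Complex I, which takes electrons from NADH, has 7 mitochondrial subunits. mt-Nd1 (positions 2751 to 3707, plus strand) had 4819, 2143 and 2189.8 CPM in control and 2308, 2619 and 2104 CPM in the labelled libraries. mt-Nd2 (3914 to 4951) had 2693, 1074 and 1067 CPM in control and 1105, 1249.9 and 978.7 CPM in the labelled libraries. In both genes control replicate 1 was high and the other 5 libraries overlapped, with log2 fold changes of -0.38 (SE 0.30, edgeR adjusted p = 0.937) and -0.54 (SE 0.35, adjusted p = 0.929), or 0.11 and 0.05 without that library. mt-Nd4 had 1881, 820.7 and 791.5 CPM in control and 787.3, 881.1 and 709.9 CPM in the labelled libraries. mt-Nd5, the largest subunit made in the organelle, had 3238, 1558 and 1515 CPM in control and 1381, 1675 and 1305 CPM in the labelled libraries. Their log2 fold changes were -0.55 (SE 0.32, edgeR adjusted p = 0.906) and -0.53 (SE 0.29, adjusted p = 0.891), and -0.03 and -0.09 without control replicate 1. The short mt-Nd3 and mt-Nd4l, which have nuclear copies, reached at most 93 counts in a library and had log2 fold changes of -0.32 (SE 0.67) and -0.57 (SE 0.50), or 0.57 and 0.09 without control replicate 1.

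mt-Nd6 was the 1 of 12 tested protein-coding members whose groups did not overlap in CPM. The labelled libraries lay below all controls in 6.47% of all tested genes. It is the only complex I gene read from the opposite strand of the mitochondrial genome, where it lies from 13552 to 14070 and overlaps the end of mt-Nd5 by 14 bases. It had 846.7, 334.8 and 315.2 CPM in control and 284.2, 306.3 and 254.2 CPM in the labelled libraries. All labelled libraries were below all controls, and the gap between the lowest control and the highest labelled library was small beside the height of control replicate 1. It had a log2 fold change of -0.82, with SE 0.36 and a 95% interval from -1.66 to 0.01 (edgeR adjusted p = 0.745). Without control replicate 1 it was -0.21 (SE 0.07, adjusted p = 0.104). GC offsets combined with leaving out control replicate 1, an alternative added after the data were seen, called it lower (-0.29, edgeR adjusted p = 0.00434), where 2.27% of all genes were called lower and 3.38% higher. Over its 17 alternatives the adjusted p ran from 0.00434 to 0.9997. The library kit is not described as marking strand and the strand setting of the counting is not given, so reads of mt-Nd6 and of the opposite strand there cannot be told apart.

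Complex III has a single mitochondrial subunit, cytochrome b. mt-Cytb (14145 to 15288) had 5152, 2732 and 2828 CPM in control and 2848, 3340.3 and 2613 CPM in the labelled libraries. Beyond control replicate 1 the libraries overlapped, with a log2 fold change of -0.28 (SE 0.24, edgeR adjusted p = 0.937) and 0.07 without that library.

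Complex IV, the cytochrome c oxidase that passes electrons to oxygen, has its 3 catalytic core subunits here. mt-Co1 (5328 to 6872), the most counted member, had 16426, 9249.7 and 9387 CPM in control and 9278, 10756 and 8596 CPM in the labelled libraries. Its log2 fold change was -0.29 (SE 0.22, edgeR adjusted p = 0.937), and 0.03 without control replicate 1. mt-Co2 had 115.3, 43.5 and 24.2 CPM in control and 71.1, 81.3 and 29.2 CPM in the labelled libraries, and its copy Gm28661 had 1582, 393 and 356 against 865, 1099 and 400 counts. mt-Co3 had 60.8, 12.3 and 13.3 CPM in control and 29.1, 37.1 and 12.6 CPM in the labelled libraries. In both genes and in that copy, labelled replicates 1 and 2 and control replicate 1 were the 3 highest libraries. The log2 fold changes of mt-Co2 and mt-Co3 were -0.01 (SE 0.57, edgeR adjusted p = 0.998) and -0.13 (SE 0.65, adjusted p = 0.978). They were 0.82 and 1.03 without control replicate 1, and 0.33 and 0.21 without labelled replicate 3. With GC offsets and all 6 libraries they were 0.26 and 0.17. The sign thus depended on the libraries and on the fit.

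Complex V, the ATP synthase, has 2 mitochondrial subunits of its proton channel part. mt-Atp6 had 79.5, 13.1 and 18.8 CPM in control and 23.2, 19.9 and 11.98 CPM in the labelled libraries, with control replicate 1 far above the rest. Its log2 fold change was -1.01 (SE 0.64, edgeR adjusted p = 0.928), the most negative of the members, and 0.20 without control replicate 1. mt-Atp8 overlaps mt-Atp6 by 43 bases, held 1 to 6 counts per library and did not pass the filter on low counts. Summed over subunits, the exact permutation p was 0.5 for complex I, 0.7 for complex III, 0.6 for complex IV and 0.7 for complex V.

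The rRNAs form the core of the mitochondrial ribosome. mt-Rnr1, the 12S rRNA at positions 70 to 1024, had 595.6, 247.0 and 259.2 CPM in control and 310.1, 278.4 and 233.6 CPM in the labelled libraries. mt-Rnr2, the 16S rRNA at positions 1094 to 2675, had 937.4, 419.2 and 398.1 CPM in control and 403.8, 460.6 and 344.3 CPM in the labelled libraries. Control replicate 1 was the highest in both, and the other libraries overlapped. The log2 fold changes were -0.42 (SE 0.33, edgeR adjusted p = 0.937) and -0.54 (SE 0.32, adjusted p = 0.916), or 0.11 and -0.03 without control replicate 1. The ratio of mt-Rnr1 to mt-Rnr2 counts, which is free of the total mitochondrial share, was 0.635, 0.589 and 0.651 in control and 0.768, 0.604 and 0.678 in the labelled libraries (exact permutation p = 0.4). The labels describe total RNA and do not say how mRNA was enriched, so the FPKM order of rRNA, tRNA and mRNA above does not give amounts in the cell.

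The tRNAs, each of which brings an amino acid to that ribosome, were thinly counted. Of the 22 tRNA genes, 8 passed the filter on low counts and 4 (mt-Tf, mt-Td, mt-Tk and mt-Tg) had 0 counts in all 6 libraries. A count of 0 in 89767428 counts allows a level of up to 0.0334 CPM, for counting error only. The genes are 59 to 75 bases long, and reads of precursors that span a tRNA can be counted to it or not. Those the results turn on are printed 5′ to 3′ as DNA with the anticodon in capitals: mt-Tp for proline, the most counted, and mt-Tc for cysteine and mt-Tl2 for leucine, whose groups did not overlap. mt-Tp and mt-Tc lie on the minus strand and mt-Tl2 on the plus strand. The strand setting of the counting is not given. Reads of a tRNA gene, like those of mt-Nd6, therefore cannot be told from reads of the opposite strand there.
mt-Tp: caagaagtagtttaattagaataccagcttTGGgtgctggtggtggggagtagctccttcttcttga
mt-Tc: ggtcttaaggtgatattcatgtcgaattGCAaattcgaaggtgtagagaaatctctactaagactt
mt-Tl2: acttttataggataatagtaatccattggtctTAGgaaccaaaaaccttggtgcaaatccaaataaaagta

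mt-Tp had 533, 325 and 236 counts in control and 289, 313 and 262 in the labelled libraries, with a log2 fold change of -0.27 (SE 0.30, edgeR adjusted p = 0.938), or 0.17 without control replicate 1. mt-Tc had 185, 132 and 112 counts in control and 62, 94 and 84 in the labelled libraries. All 3 labelled libraries were below all controls, and the log2 fold change was -0.77 (SE 0.25, adjusted p = 0.429), or -0.48 (SE 0.19, adjusted p = 0.162) without control replicate 1. mt-Tl2 had 119, 160 and 143 counts in control and 95, 91 and 117 in the labelled libraries. It was the 1 tested member in which control replicate 1 was the lowest control, and again the groups did not overlap (log2 fold change -0.38, SE 0.16, edgeR adjusted p = 0.722). Of all tested genes, 6.47% had all labelled libraries below all controls. mt-Tc and mt-Tl2 are the 2 members below an unadjusted p of 0.05 with all libraries, where 3.04% of all tested genes were lower. The other values of mt-Tc and mt-Tl2 come from the alternatives. Their log2 fold changes were negative in all 17 alternatives run for each, with adjusted p from 0.0780 to 0.9997 and from 0.0952 to 0.9997. These alternatives draw on the same libraries, so the constant sign is no separate evidence.

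The other tested tRNAs split by their behaviour in control replicate 1. mt-Ts2 (143, 30 and 42 counts in control, 38, 39 and 28 labelled), mt-Th (115, 43 and 28 against 29, 37 and 40) and mt-Tw (84, 34 and 17 against 13, 33 and 32) were 3.58 to 4.32 times as high there as in the other controls. mt-Tn was 2.09 times as high, with 240, 143 and 110 counts in control and 90, 124 and 103 in the labelled libraries. mt-Tl1, the other leucine tRNA, was 1.29 times as high, with 120, 113 and 92 against 123, 110 and 72 counts, and its log2 fold change was 0.01 (SE 0.26). The other tRNA genes were not tested: mt-Te, mt-Ty and mt-Tt had 30 to 46 counts over the 6 libraries, and 7 more had 1 to 8. Among these, mt-Tm for methionine, had 4, 2 and 2 counts in control and 0 in each labelled library.

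Shares within the mitochondrial counts remove the total, and none passed the adjusted test. mt-Nd6 made up 2.40%, 1.86% and 1.74% of the mitochondrial protein-coding counts in control and 1.57%, 1.46% and 1.53% in the labelled libraries. The groups did not overlap, and the mean difference was -0.48 percentage points, or -0.28 without control replicate 1. mt-Cytb made up 14.6%, 15.2% and 15.6% in control and 15.7%, 15.9% and 15.7% in the labelled libraries, again without overlap. mt-Nd5 had 9.17%, 8.66% and 8.35% against 7.62%, 7.99% and 7.85%, and mt-Nd4 had 5.33%, 4.56% and 4.36% against 4.34%, 4.20% and 4.27%. For these 4 genes the exact permutation p was 0.1, the smallest that 3 against 3 libraries can give, and 0.325 after Benjamini-Hochberg adjustment over the 13 protein-coding genes. mt-Co1 held 46.5%, 51.4% and 51.7% in control and 51.2%, 51.3% and 51.7% in the labelled libraries, and its difference changed sign without control replicate 1 (1.53 against -0.16 percentage points). Among tRNA counts, mt-Tp made up 33.7%, 32.3% and 29.5% in control and 38.3%, 36.0% and 34.6% in the labelled libraries, a mean difference of 4.42 percentage points. mt-Tc made up 11.7%, 13.1% and 14.0% in control and 8.21%, 10.8% and 11.1% in the labelled libraries, a mean difference of -2.92 percentage points. Neither overlapped between groups (exact permutation p = 0.1, or 0.6 after adjustment over the 18 tRNA genes with counts). The same held for the thinly counted mt-Tm. By contrast, the share of mt-Tl2 overlapped, at 7.53%, 15.9% and 17.9% in control and 12.6%, 10.5% and 15.4% in the labelled libraries (exact permutation p = 0.8). Shares add up to a fixed total, so they are not independent of each other.

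Nuclear genes that serve the mitochondrial genome showed no called member in the edgeR fit of all libraries without GC offsets. The 13 lists cover its replication, transcription, RNA processing, RNA modification, tRNA synthetases, translation factors, both subunits of the mitochondrial ribosome, regulators of biogenesis and the nuclear subunits of complexes I, III, IV and V. Together they hold 292 genes, of which 282 were tested. EdgeR called 0 of them in either direction, where it called 1.14% of all genes. By the unadjusted p, 3 were higher and 3 were lower, where 3.71% and 3.04% of all genes were. DESeq2 also called 0 of them, and 2.19% of all genes. Medians of the lists ran from -0.08 (transcription) to 0.12 (biogenesis regulators). The nuclear subunits of the respiratory complexes, such as Cox4i1 of complex IV (log2 fold change 0.06, SE 0.14), had medians of 0.03 for complex I, 0.07 for complex III, 0.04 for complex IV and 0.04 for complex V. Without control replicate 1 these 4 medians were -0.11, -0.04, -0.07 and -0.06, and that of the transcription list was 0.01, each of the opposite sign.

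Pnpt1 was the 1 list member called in any of 15 alternatives, and is named after its values were seen. It encodes polynucleotide phosphorylase, an exonuclease that takes part in the decay of mitochondrial RNA and is also known as an interferon-induced gene. It had 89.1, 51.4 and 55.8 CPM in control and 69.6, 78.3 and 72.5 CPM in the labelled libraries, so that the groups overlapped only through control replicate 1. The log2 fold change was 0.17 (SE 0.20, edgeR adjusted p = 0.944) with all libraries. Without control replicate 1 it rose by 0.45 (SE 0.08, adjusted p = 0.00071), where 2.67% of all genes were called higher, and with GC offsets it was also called higher (adjusted p = 0.0217). Its highest adjusted p with 1 library left out was 0.9997.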

How the data were processed

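Read counts per gene, whole numbers, and FPKM were deposited by the authors for 6 libraries. HISAT2 and the mm10 build are named in the submitters' processing notes. How reads were counted (program, strand setting, reads with several matches, annotation) is "not given in the sources used here". In the deposited table, FPKM is proportional to count over gene length within a library. Column names show the group and a number, used as the replicate number. All 37 members have the same position in GENCODE vM21, which gave sequences and GC content (54409 of 54532 identifiers matched).

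Counts were tested over the whole table with edgeR 4.0.16 (quasi-likelihood, TMM, filterByExpr with a minimum count of 10, limma 3.58.1, R 4.3.3), and p-values were adjusted by Benjamini-Hochberg over all tested genes, with a threshold of 0.05. The script was tested on simulated data. CPM are counts relative to library size after TMM scaling. Shares were compared by exact permutation over libraries. Intervals and floors cover counting error only. Named genes were all protein-coding and rRNA members, the tested tRNAs, Ermap, and from each list the 2 called members with the smallest adjusted p or, with none called, the most abundant member, of which some are left out. Alternatives were DESeq2 1.42.0, limma-trend on log2 FPKM, other scalings, no filter, a replicate block, GC offsets and left-out libraries. Members and lists were chosen with earlier results of these data known. Within each group, every pair of libraries differed beyond counting noise (chi-square over degrees of freedom at least 3.35).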

Additional observations from a re-analysis of the deposited data

How the results depend on the processing

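Of 18 alternatives, 18 called 0 mitochondrial genes higher and 17 called 0 lower. GC offsets combined with leaving out control replicate 1, added after the data were seen, called 1 lower (mt-Nd6, -0.29). Of 22 genes, 7 had a negative log2 fold change in every alternative (mt-Rnr2, mt-Tn, mt-Tc, mt-Nd4, mt-Tl2, mt-Nd5 and mt-Nd6). The other 15 changed sign in at least 1, and the cause was not tested. All alternatives draw on the same libraries, so a constant sign is no separate evidence. With limma-trend on log2(FPKM + 1), mt-Tl1 was at -0.024, mt-Co2 at 0.16 and mt-Co3 at 0.14, and with log2(FPKM + 0.1) they were at -0.025, 0.16 and 0.15. With the replicate block they were at -0.022, 0.16 and 0.12. The replicate block called 0 mitochondrial genes, and correlations of the deviations of same-numbered libraries were -0.16, -0.33 and 0.23, so the numbers were not taken as pairs. mt-Co2 was at 0.0016 with no filter on low counts and at 0.028 with the counts of the chromosome 1 copies added. With GC offsets, mt-Co2 was at 0.26, mt-Co3 at 0.17 and mt-Nd3 at 0.065. GC offsets without control replicate 1 gave mt-Rnr1 0.043, mt-Nd1 0.040, mt-Tw 0.084, mt-Co2 0.74, mt-Atp6 0.13, mt-Co3 0.95, mt-Nd3 0.49, mt-Nd4l 0.032, mt-Th 0.048, mt-Ts2 0.015, mt-Cytb 0.0059 and mt-Tp 0.13. With 1 library left out, log2 fold changes ran from -0.65 to 0.11 for mt-Rnr1, -0.22 to 0.23 for mt-Tl1, -0.59 to 0.11 for mt-Nd1, -0.76 to 0.048 for mt-Nd2, -1.13 to 0.15 for mt-Tw, -0.44 to 0.028 for mt-Co1, -0.39 to 0.82 for mt-Co2 and -1.43 to 0.20 for mt-Atp6. They ran from -0.50 to 1.03 for mt-Co3, -0.69 to 0.57 for mt-Nd3, -0.95 to 0.085 for mt-Nd4l, -1.10 to 0.12 for mt-Th, -1.38 to 0.083 for mt-Ts2, -0.45 to 0.072 for mt-Cytb and -0.50 to 0.17 for mt-Tp. Leaving out control replicate 1 reversed 14 of the 22. The difference in share ran from -0.868 to 0.0425 percentage points for all mitochondrial genes, -0.823 to 0.0415 for protein-coding genes and -0.0424 to 0.0012 for rRNA. The share of mt-Co1 among protein-coding counts ran from -0.16 to 2.44. Nuclear list genes called higher were 0 to 1 with 1 library left out and 1 with GC offsets (Pnpt1). Over all genes, edgeR called 143, or 622 without control replicate 1, 415 with GC offsets and 84 with the replicate block, and DESeq2 called 273. Shared windows of 50 in place of 100 bases moved mt-Nd5 from 0% to 7.61% and mt-Rnr2 from 0% to 1.04%. mt-Atp8 and 14 tRNA genes did not pass the filter on low counts and were not tested.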
